A study of Rattus norvegicus with 21 samples.

Results

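The genes described here carry out mitosis, from the kinases that start it to the proteins that cut the cell in 2. They were taken from a list of 42 symbols, and the members are the rows of the count table under those symbols, whatever their values. Of the 42 symbols 35 had a row, among 17085 gene symbols in all, and all 35 had enough counts to be among the 11742 genes tested. The other 7, Ccnb1, Ccnb2, Birc5, Kif11, Kif15, Top2a and Racgap1, were not analysed here.

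The data were bulk RNA sequencing of rat hearts (Sprague Dawley), taken from the zone of infarction 24 h after ligation of the left anterior descending coronary artery (LAD), in 7 groups of 3 libraries. In MI1h-23h-F and MI1h_R the artery was ligated for 1 h and reperfused for 23 h, which the design text calls early reperfusion, and MI1h-23h-F also carried F. In MI6h-18h-F and MI6h_R it was ligated for 6 h and reperfused for 18 h (late reperfusion), with F in MI6h-18h-F. In MI24h-F and MI24h it stayed ligated for 24 h, with F in MI24h-F, and Sham hearts were the operated controls. What F stands for is not written in the labels. Fenofibrate, a drug that activates the nuclear receptor PPARα, is named as a pretreatment in the design text, and F was given to no Sham library. The labels do not give age, sex or dose, nor whether each library is its own animal, so p-values measure the spread between these libraries. They also do not say whether libraries with and without F were made together, so F and any other difference between these sets cannot be told apart.

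Mitosis follows DNA replication. CDK1 with its cyclins starts it, the spindle checkpoint holds it until kinetochores have bound the spindle, the anaphase-promoting complex then releases the sister chromatids, and the cell is cut apart in cytokinesis. Most of these genes are off in resting cells and are transcribed late in the cycle, so their transcripts mark dividing cells. In the adult heart muscle cells rarely divide, and after infarction most dividing cells are fibroblasts, endothelial cells and leukocytes. In bulk tissue, fewer cells of a type and less RNA per cell cannot be told apart.

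Known control elements were looked for in the promoters, because the members moved together in the libraries. In mouse and human cells late cell cycle genes are repressed by the DREAM complex and activated by B-MYB and FOXM1 through the element TTTGAA, often with CCAAT, the box bound by NF-Y, close by. Of the 35 genes 31 had a promoter in the RefSeq table (rat build GRCr8), 300 bases from 250 before to 50 after the annotated start. The promoters of Aurka, Melk, Bub1, Kif2c, Ncaph and Ncapg2 hold neither TTTGAA nor CCAAT. Those of Cdk1, Prc1 and Cenpf are shown because they hold both elements, and that of Ncapg2 as an example that holds neither. They lie on chr20:19265043-19265342 (plus strand), chr1:143659231-143659530 (plus strand), chr13:103760837-103761136 (minus strand) and chr6:143485694-143485993 (plus strand), in that order. Each is written 5′ to 3′ on the gene's strand, and capitals mark TTTGAA and CCAAT on either strand, read as TTCAAA and ATTGG when on the opposite one.
Cdk1: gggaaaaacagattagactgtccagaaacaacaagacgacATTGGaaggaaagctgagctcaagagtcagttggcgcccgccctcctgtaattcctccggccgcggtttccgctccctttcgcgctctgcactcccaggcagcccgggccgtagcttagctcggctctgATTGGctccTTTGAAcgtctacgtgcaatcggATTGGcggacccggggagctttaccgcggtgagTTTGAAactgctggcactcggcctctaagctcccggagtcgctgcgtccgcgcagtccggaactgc
Prc1: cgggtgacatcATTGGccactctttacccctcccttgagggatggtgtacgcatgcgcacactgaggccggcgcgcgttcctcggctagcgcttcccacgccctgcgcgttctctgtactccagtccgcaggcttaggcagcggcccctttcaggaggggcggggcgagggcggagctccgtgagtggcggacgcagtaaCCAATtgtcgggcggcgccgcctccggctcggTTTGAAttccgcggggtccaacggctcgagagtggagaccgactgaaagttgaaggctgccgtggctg
Cenpf: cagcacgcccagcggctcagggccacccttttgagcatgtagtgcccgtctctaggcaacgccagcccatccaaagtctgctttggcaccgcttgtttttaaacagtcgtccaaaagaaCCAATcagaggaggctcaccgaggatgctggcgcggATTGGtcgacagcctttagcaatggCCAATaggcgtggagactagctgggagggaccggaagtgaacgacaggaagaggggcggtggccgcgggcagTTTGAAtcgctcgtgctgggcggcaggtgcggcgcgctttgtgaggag
Ncapg2: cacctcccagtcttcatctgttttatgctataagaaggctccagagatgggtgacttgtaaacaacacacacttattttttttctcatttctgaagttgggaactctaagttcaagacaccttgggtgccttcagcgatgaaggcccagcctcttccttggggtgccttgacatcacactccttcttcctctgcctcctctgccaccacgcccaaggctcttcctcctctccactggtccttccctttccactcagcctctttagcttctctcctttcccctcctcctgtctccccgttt

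The element TTTGAA, on either strand, was in 22 of the 31 promoters, or 71%, against 18.3% of all 33469 promoters in the table and 13.6% of the 13340 whose gene had a row in the counts. CCAAT was in 67.7% of the members' promoters, against 59.4% of 32 promoters of DNA replication genes and 36.7% of those with a row. Both were in 58.1% of the members' promoters and in 5.35% of those with a row. In Mki67 and Cdca8 the 2 matches share 1 base. In Cdk1, TTTGAA lies 72 and 16 bases before the annotated start, at -72 and -16, and in Prc1 at -18. The E2F element of replication genes, TTTGGCGC or TTTCCCGC, was in 0 of 31 members' promoters. It was in 43.8% of the promoters of replication genes, and TTTGAA was in 12.5% of them. These matches describe the sequences and are not evidence of binding. Counts of calls for members and replication genes are given beside them, and whether the lists differed was not tested. In MI6h-18h-F relative to MI6h_R 28 of 35 members and 1 of 40 replication genes rose, where 3.92% of all genes rose. In MI1h_R relative to Sham most of both lists rose, 33 and 36, where 25.4% of all genes rose. No link between these elements and the values was tested.

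Across the 21 libraries total counts ran from 12208041 to 18393795, and the 35 genes together held 2103 to 30898 of them. Transcripts of the mitochondrial genome took 11.3% to 20.2% of counts in the injured groups and 33.5% to 38.5% in Sham, and markers of heart muscle cells summed to 2655 to 15931 CPM (counts scaled to library size) in injured libraries against 55095 to 108050 CPM in Sham. Comparisons with Sham therefore depend on scaling. With the TMM factors of edgeR, which CPM values here use, the median log2 fold change of all genes between MI24h and Sham was 0.07, and it was 0.80 with library size alone. Changes against Sham are read relative to that median.

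Per unit length the most abundant member was Cdk1, the kinase that starts mitosis, with a mean of 36.9 TPM (the authors' values scaled to transcript length and depth) over the 21 libraries. Ube2c, a ubiquitin-conjugating enzyme that works with the anaphase-promoting complex, followed with a mean of 31.4 TPM. Smc4, a core subunit of the condensins that compact chromosomes, had 27.2 TPM. In the other roles the most abundant members were Prc1, which bundles the microtubules of the spindle midzone (15.2 TPM), and Cdca8 (borealin) of the chromosomal passenger complex (13.97 TPM). Tpx2, which recruits and activates Aurora A on the spindle, had a mean of 11.3 TPM, and Nuf2, a part of the kinetochore's microtubule-binding NDC80 complex, 7.94 TPM.

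Summed over the 35 genes, the level was highest in MI1h-23h-F, at 1976, 1787 and 1013 CPM. It was 1102, 1075 and 701 CPM in MI1h_R. With late reperfusion it was 1735, 1121 and 1031 CPM in MI6h-18h-F and 428, 451 and 512 CPM in MI6h_R. Under permanent ligation it was 761, 805 and 1076 CPM in MI24h-F and 332, 488 and 416 CPM in MI24h, and in Sham it was 349, 461 and 231 CPM. All 3 groups with F lay above MI6h_R, MI24h and Sham with no overlap. Among the groups without F, MI1h_R lay above the other 3, which overlapped one another.

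**Figure D1:**
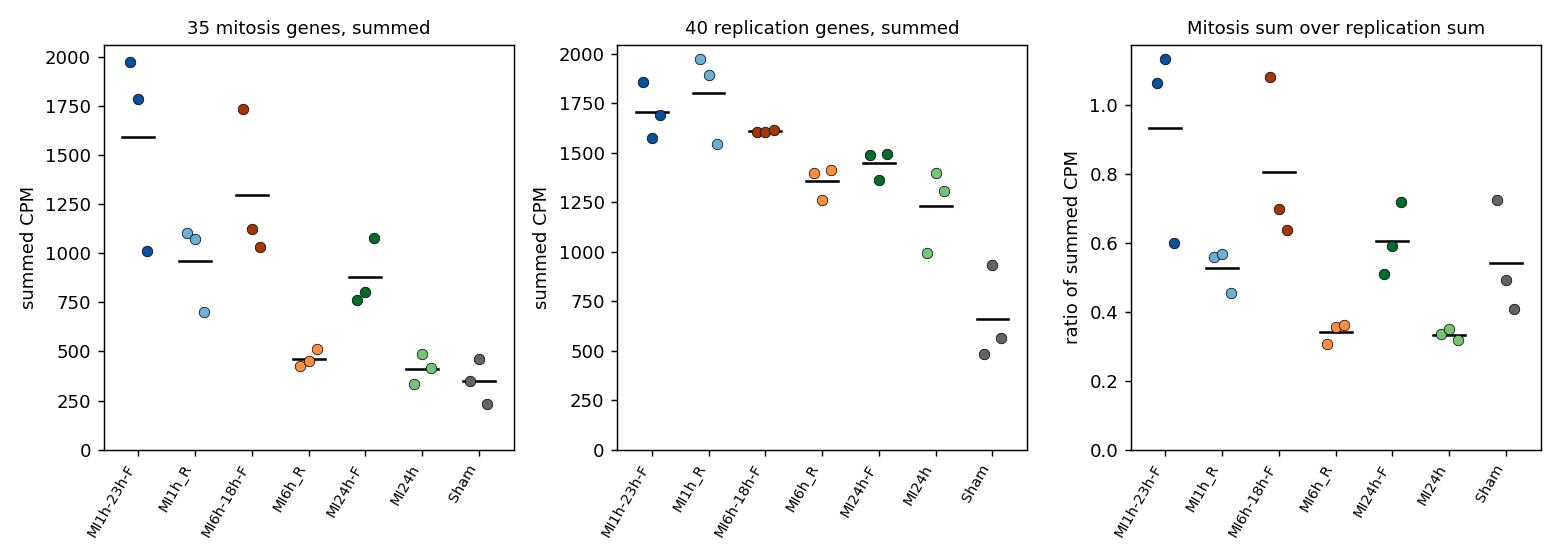
Summed CPM of the 35 mitosis genes (left) and of 40 DNA replication genes (centre), and the ratio of the 2 sums (right), with 1 point per library and a line at the mean of each group of 3. The mitosis sum is 1013 CPM or more in every MI1h-23h-F library and 512 CPM or less in every MI6h_R, MI24h and Sham library, while the replication sum is lowest in Sham.

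The order of groups was much the same from gene to gene. The highest group mean was that of MI1h-23h-F for 32 of 35 members and that of MI6h-18h-F for the other 3. The lowest was Sham for 26 members, MI6h_R for 7 and MI24h for 2. Libraries of a group also differed in step. In MI1h-23h-F, replicate 5 was the lowest library for all 35 members, and in MI6h-18h-F, replicate 1 was the highest for 33. In MI24h-F, replicate 4 was the highest for 33, in MI1h_R, replicate 41 was the lowest for 32, and in Sham, replicate 41 was the lowest for 30. The 35 genes are therefore not independent readings of a group.

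**Figure D2:**
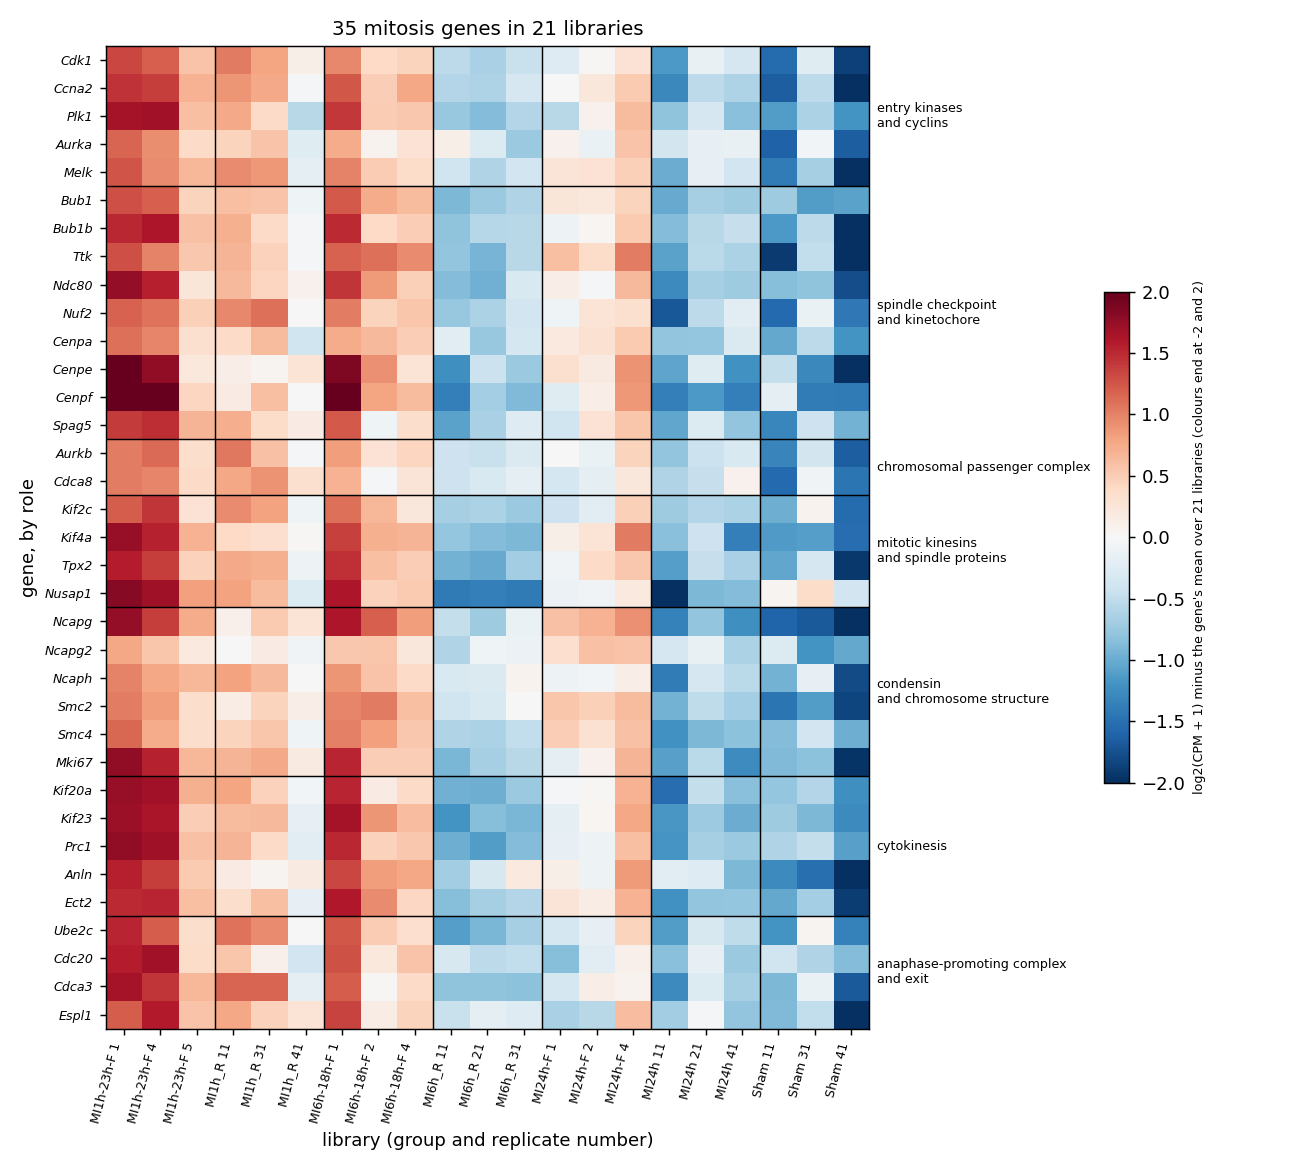
Level of each of the 35 genes (rows, by role) in each of the 21 libraries (columns, by group and replicate number), as log2(CPM + 1) minus the gene's mean over the 21 libraries. Whole columns shift together, with MI1h-23h-F replicates 1 and 4 and MI6h-18h-F replicate 1 the reddest, and MI6h_R, MI24h and Sham blue for most genes.

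The comparisons without F set the injuries against Sham and against each other. All hearts were taken at 24 h, so a longer ligation came with a shorter reperfusion or none. The lengths of ischemia and of reperfusion cannot be told apart. A gene was called where the quasi-likelihood test of edgeR gave an adjusted p under 0.05 over all genes tested. With early reperfusion nearly the whole set was above Sham. Of 35 members 33 rose in MI1h_R relative to Sham and none fell, where 25.4% of all genes rose, and the members' median was 1.54 on the log2 scale, a 2.91-fold level, against 0.06 for all genes. Every member of 5 of the 7 roles was called. Not called were Nusap1, which bundles spindle microtubules (0.44 ± 0.40, SE here and below, edgeR adjusted p = 0.383), and Cdc20, the activator of the anaphase-promoting complex (0.80 ± 0.36, adjusted p = 0.0735).

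The spread of single libraries shows how far the groups were apart. Cdk1 stood at 59.5, 49.6 and 30.7 CPM in MI1h_R, at 19.3, 17.7 and 20.5 CPM in MI6h_R, at 12.2, 25.4 and 22.2 CPM in MI24h and at 9.07, 23.8 and 7.02 CPM in Sham. Plk1, the polo-like kinase of mitotic entry, had 20.4, 15.4 and 7.62 CPM in MI1h_R, 6.45, 5.90 and 7.39 CPM in MI6h_R, 6.19, 9.04 and 6.10 CPM in MI24h and 4.82, 7.19 and 4.50 CPM in Sham. For both kinases MI1h_R lay wholly above Sham, and the lowest Plk1 library of MI1h_R lay within the range of MI24h. Their log2 fold changes of MI1h_R over Sham were 1.80 ± 0.38 for Cdk1 (edgeR adjusted p = 0.000807) and 1.39 ± 0.40 for Plk1 (adjusted p = 0.00828).

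The 6 chromosome genes had a median log2 fold change of 1.32 in MI1h_R over MI24h and of 0.77 in MI1h_R over MI6h_R, where they were the lowest of the 7 roles. Mki67, the proliferation marker that coats mitotic chromosomes, had 113, 118 and 79.3 CPM in MI1h_R, 36.6, 43.6 and 47.2 CPM in MI6h_R, 32.3, 47.6 and 28.5 CPM in MI24h and 37.6, 39.2 and 17.3 CPM in Sham. Smc4 had 130, 140 and 89.0 CPM in MI1h_R, 61.7, 60.3 and 66.8 CPM in MI6h_R, 40.3, 50.3 and 52.9 CPM in MI24h and 51.7, 72.3 and 47.5 CPM in Sham. For these genes every MI1h_R library exceeded every library of the other 3 groups. Mki67 rose by 1.72 ± 0.36 over Sham (edgeR adjusted p = 0.000752). The largest rise over Sham was that of Ncapg, a condensin I subunit, at 2.68 ± 0.37 (adjusted p = 1.71e-05), and the smallest p was that of its partner Smc2 (1.73 ± 0.21, adjusted p = 5.73e-06).

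In the chromosomal passenger complex, which corrects faulty attachments to the spindle, the kinase gene Aurkb had 33.3, 24.0 and 15.3 CPM in MI1h_R, 11.4, 11.1 and 12.6 CPM in MI6h_R, 8.60, 11.3 and 12.5 CPM in MI24h and 5.67, 11.9 and 4.28 CPM in Sham. Its partner Cdca8 had 20.1, 22.2 and 14.4 CPM in MI1h_R, 8.29, 9.03 and 9.87 CPM in MI6h_R, 7.14, 8.004 and 12.1 CPM in MI24h and 3.21, 10.7 and 3.51 CPM in Sham. Both had MI1h_R above all other groups without F, with no overlap, and Aurkb rose by 1.72 ± 0.35 over Sham (edgeR adjusted p = 0.000485).

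Of the spindle and kinetochore genes, Tpx2 and Nuf2 had every MI1h_R library above every library of the other 3 groups without F. Tpx2 had 44.9, 43.5 and 24.2 CPM in MI1h_R, 13.1, 12.5 and 15.8 CPM in MI6h_R, 11.6, 18.6 and 16.3 CPM in MI24h and 12.2, 20.6 and 6.14 CPM in Sham. Nuf2 had 20.4, 22.5 and 10.03 CPM in MI1h_R, 5.53, 6.08 and 7.44 CPM in MI6h_R, 2.40, 6.66 and 8.50 CPM in MI24h and 2.74, 9.01 and 3.07 CPM in Sham. The range of Nuf2 within MI24h and within Sham was more than 3-fold, wider than in MI6h_R.

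Late-acting genes completed the set. Prc1 had 50.2, 40.7 and 26.3 CPM in MI1h_R, 15.2, 13.7 and 16.5 CPM in MI6h_R, 13.0, 19.0 and 17.96 CPM in MI24h and 20.03, 21.9 and 14.04 CPM in Sham. Ube2c had 28.1, 25.3 and 12.7 CPM in MI1h_R, 5.38, 6.26 and 7.66 CPM in MI6h_R, 5.32, 10.02 and 8.64 CPM in MI24h and 5.01, 13.2 and 4.39 CPM in Sham. The highest Sham library for Ube2c lay above the lowest MI1h_R library. Over Sham, Prc1 rose by 1.06 ± 0.34 (edgeR adjusted p = 0.0156) and Ube2c by 1.54 ± 0.43 (adjusted p = 0.00657).

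**Figure D3:**
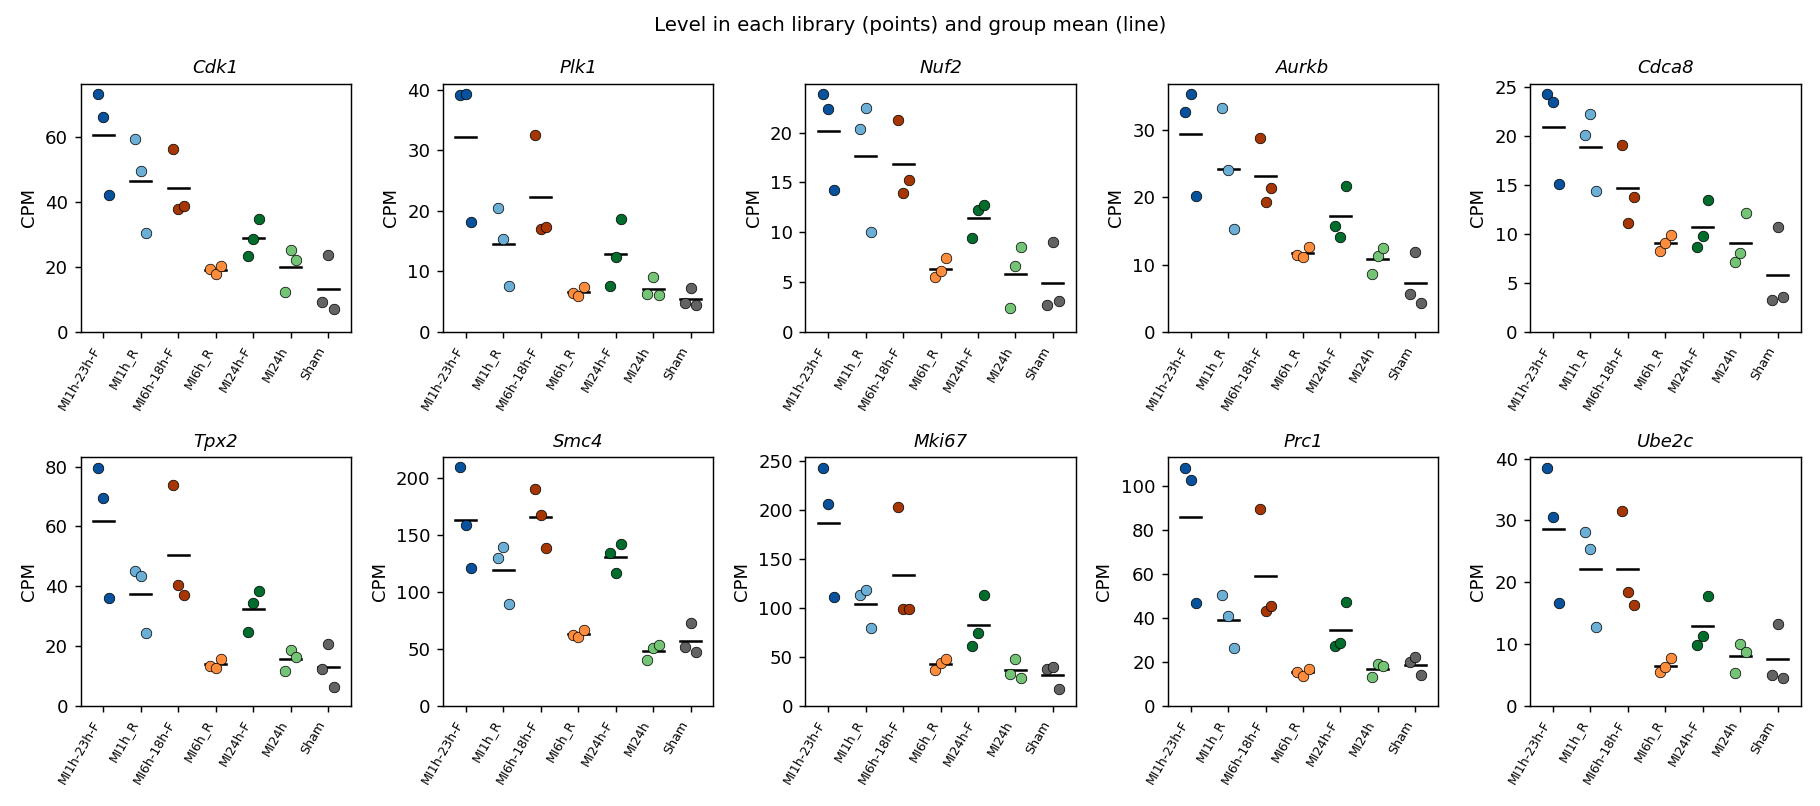
CPM of 10 members in each library (points) with the group mean (line), for the most abundant member per unit length in each role and for Plk1, Aurkb and Mki67. In all 10 panels the MI1h-23h-F mean is above the MI1h_R mean, and the MI6h_R, MI24h and Sham means are the 3 lowest.

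Under permanent ligation and late reperfusion few members passed the test against Sham. In MI24h 4 members rose and 1 fell relative to Sham, where 28% of all genes rose and 26.2% fell, with a members' median of 0.27. In MI6h_R 4 rose and 1 fell, where 29.3% of all genes rose and 28% fell, with a median of 0.47. Both shares of members are below the shares of all genes. Smc2, Ncapg, Anln and Melk were called up and Nusap1 down in both comparisons, which share their Sham libraries. Smc2 rose by 1.26 ± 0.21 in MI6h_R (edgeR adjusted p = 5.65e-05) and by 0.77 ± 0.21 in MI24h (adjusted p = 0.00426). Ncapg rose by 1.88 ± 0.37 in MI6h_R (adjusted p = 0.000293) and by 1.08 ± 0.37 in MI24h (adjusted p = 0.0203). Anln, the scaffold of the contractile ring, rose by 1.69 ± 0.41 in MI6h_R (adjusted p = 0.00173) and by 1.47 ± 0.41 in MI24h (adjusted p = 0.00526). Melk, a cell cycle kinase, rose by 0.98 ± 0.40 in MI6h_R (adjusted p = 0.0413) and by 0.97 ± 0.40 in MI24h (adjusted p = 0.0469).

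Nusap1 went the other way. It had 4.02, 4.21 and 4.02 CPM in MI6h_R, 1.97, 6.17 and 6.38 CPM in MI24h and 12.9, 16.3 and 9.32 CPM in Sham, so that Sham lay wholly above both. It fell by 1.65 ± 0.42 in MI6h_R (edgeR adjusted p = 0.00271) and by 1.405 ± 0.42 in MI24h (adjusted p = 0.00876). With library size alone it had -0.83 in MI6h_R and -0.69 in MI24h and was not called in either. These small counts of calls rest on the scaling and on the Sham libraries. With library size alone 19 members rose in MI24h, where 55.2% of all genes rose, and 25 in MI6h_R, where 58.6% rose. The members' median was then 0.17 and 0.37 above that of all genes, against 0.20 and 0.41 with TMM. Without Sham replicate 31, the highest Sham library for 27 members, 11 rose in MI24h and 15 in MI6h_R, where 28% and 29.4% of all genes rose. Without MI24h replicate 21 or Sham replicate 41, 2 rose in MI24h, where 25.5% and 22.2% of all genes rose.

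**Figure D4:**
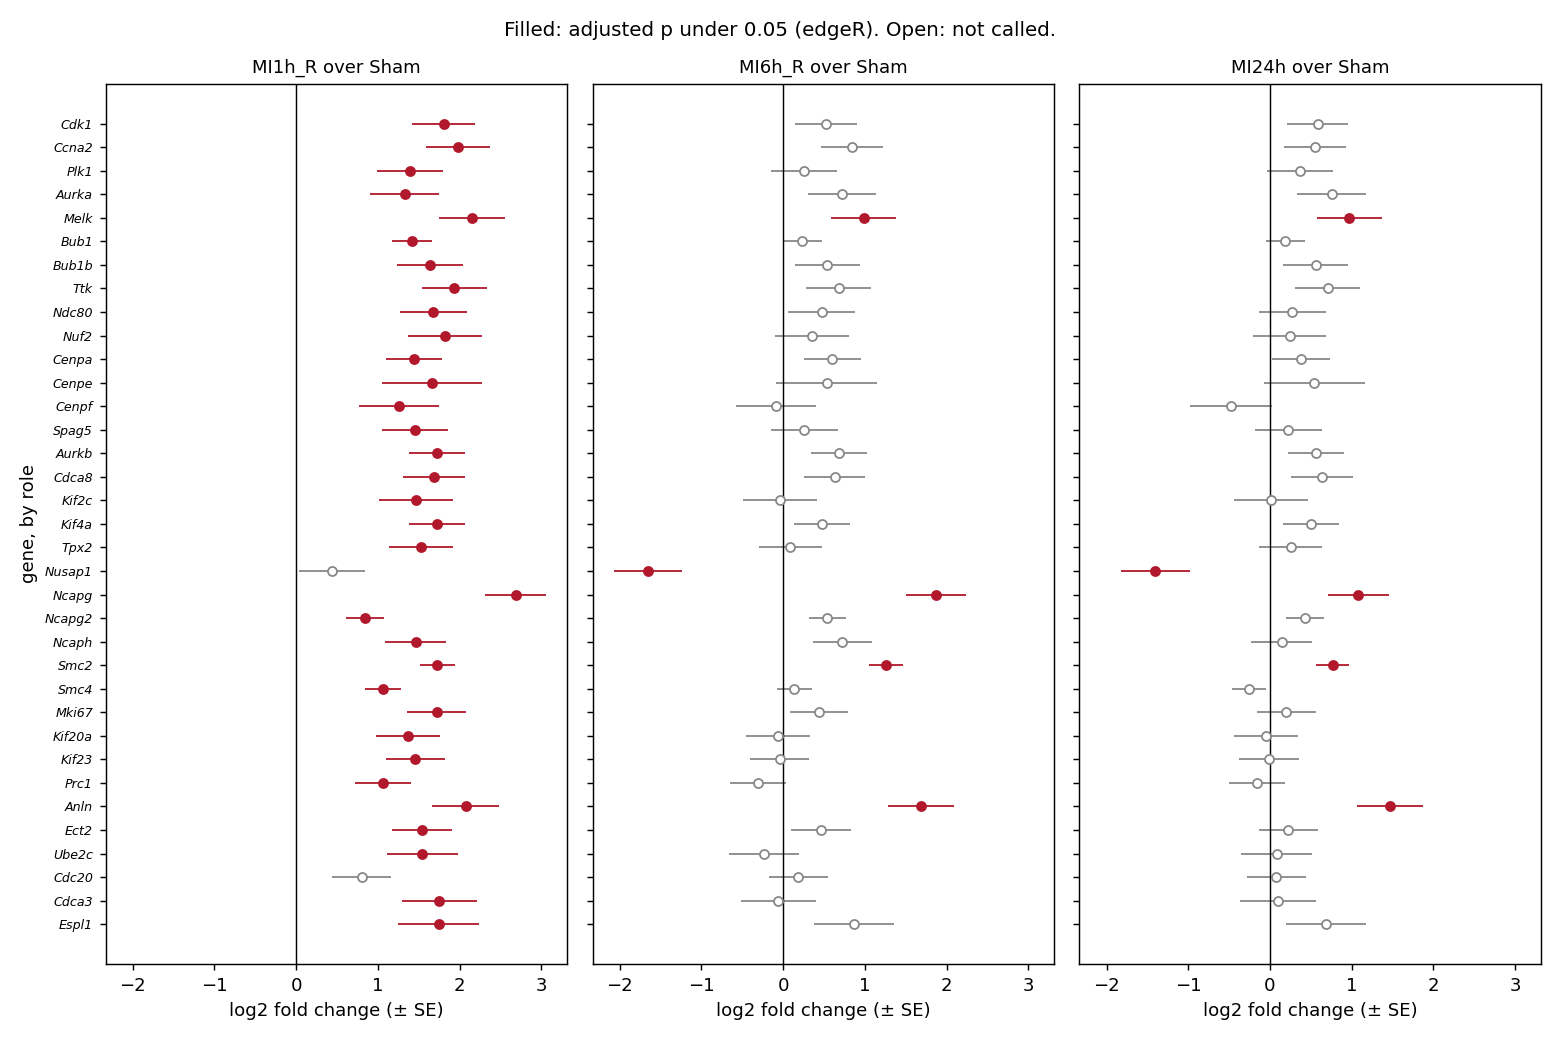
Log2 fold change over Sham of each of the 35 genes (rows, by role) in MI1h_R, MI6h_R and MI24h, with bars of ± 1 SE from edgeR, filled where the adjusted p was under 0.05. In MI1h_R 33 genes are filled and all lie above 0, and in MI6h_R and MI24h 5 are filled, with Nusap1 below 0.

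Set against each other, early reperfusion stood above both other injuries. Of 35 members 15 rose in MI1h_R relative to MI24h and none fell, where 1.51% of all genes rose and 2.81% fell. The members' median was 1.23, a 2.35-fold level, all 35 were positive, and 30 lay in MI1h_R wholly above MI24h, as 11.1% of all genes did. Called were 5 of 6 condensin and chromosome genes, 4 of 5 cytokinesis genes and 6 of the other 24. Smc4 had the smallest p (1.32 ± 0.22, edgeR adjusted p = 0.00316). Bub1, a kinase of the spindle checkpoint, rose by 1.23 ± 0.24 (adjusted p = 0.00806), Mki67 by 1.52 ± 0.36 (adjusted p = 0.0231), Nuf2 by 1.58 ± 0.44 (adjusted p = 0.0484) and Prc1 by 1.23 ± 0.34 (adjusted p = 0.0493). The largest difference was that of Nusap1 (1.85 ± 0.42, adjusted p = 0.0187).

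Many members lay just outside the threshold. Cdk1 had 1.22 ± 0.37 (edgeR adjusted p = 0.0692), Aurkb 1.16 ± 0.33 (adjusted p = 0.0549), Tpx2 1.27 ± 0.38 (adjusted p = 0.0657) and Ube2c 1.46 ± 0.43 (adjusted p = 0.059). The smallest difference was 0.41 ± 0.23 for the condensin II gene Ncapg2 (adjusted p = 0.326). The promoter windows of Ncapg2 and of Bub1, which was among the members with the smallest p, both hold neither TTTGAA nor CCAAT. The count of calls hangs on single libraries, since it was 1 without MI24h replicate 11, 2 without MI1h_R replicate 31, 4 without MI1h_R replicate 11, 6 without MI24h replicate 41 and 26 without MI1h_R replicate 41. DESeq2 called 27, where it called 3.58% of all genes up, limma-voom called 25, where it called 5.26%, and a fit of these 2 groups alone called 0, with the median at 0.90 or more under every alternative.

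Relative to MI6h_R, 7 members rose in MI1h_R and none fell, where 1.26% of all genes rose, and all 35 were positive with a median of 1.17. These were Bub1 (1.18 ± 0.24, edgeR adjusted p = 0.0182), Nusap1 (2.09 ± 0.42, adjusted p = 0.0191), Smc4 (0.92 ± 0.21, adjusted p = 0.036), Kif23, a motor of the midzone (1.4998 ± 0.36, adjusted p = 0.0394), Ube2c (1.77 ± 0.43, adjusted p = 0.0409), Prc1 (1.37 ± 0.34, adjusted p = 0.0428) and Cdca3, a trigger of entry into mitosis (1.81 ± 0.45, adjusted p = 0.0428). The count was 21 without MI1h_R replicate 41, 1 without MI6h_R replicate 31 and 0 without any of the other 4 libraries in turn. MI1h_R libraries enter both this comparison and that with MI24h. Between MI6h_R and MI24h no member was called by edgeR, DESeq2 or limma-voom, where edgeR called 0.111% of all genes up, 2 members had an unadjusted p under 0.05 and a value above 0, as 3.47% of all genes did, and the median was 0.04. The SE of a member's log2 fold change there was 0.20 to 0.58, and the largest value was 0.80 ± 0.34 for Ncapg (adjusted p = 0.499).

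With F most of the set rose under late reperfusion and a part of it under permanent ligation, and no member was called under early reperfusion. Under late reperfusion 28 of 35 members rose in MI6h-18h-F relative to MI6h_R and none fell, where 3.92% of all genes rose and 5.71% fell. The members' median was 1.60, a 3.03-fold level, and for 34 members every MI6h-18h-F library lay above every MI6h_R library, as was so for 15.8% of all genes. All 9 checkpoint and kinetochore genes, all 4 spindle genes and all 5 cytokinesis genes rose, as did 4 of 6 chromosome genes, 3 of 4 exit genes and 3 of 5 entry genes. Neither passenger gene was called.

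Cdk1 had 56.3, 37.8 and 38.8 CPM in MI6h-18h-F, all above the 17.7 to 20.5 CPM of MI6h_R (1.21 ± 0.37, edgeR adjusted p = 0.0477). Plk1 had 32.5, 17.0 and 17.3 CPM in MI6h-18h-F against at most 7.39 CPM in MI6h_R (1.76 ± 0.40, adjusted p = 0.0123). Nuf2 had 21.3, 13.9 and 15.2 CPM in MI6h-18h-F, against 5.53 to 7.44 CPM in MI6h_R (1.405 ± 0.44, adjusted p = 0.049). In each of these genes replicate 1 was well above the other 2 F libraries, and without it 13 members were called.

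Tpx2 had 73.9, 40.3 and 37.2 CPM in MI6h-18h-F, against at most 15.8 CPM in MI6h_R (1.87 ± 0.39, edgeR adjusted p = 0.0085). Smc4 had 190, 168 and 138 CPM, with a log2 fold change over MI6h_R of 1.39 ± 0.22 (adjusted p = 0.00337). Mki67 had 204, 99.3 and 98.6 CPM, with a log2 fold change over MI6h_R of 1.66 ± 0.36 (adjusted p = 0.0102). Smc4 differed little between the 3 F libraries, whereas for Mki67 replicate 1 stood far above the others.

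Prc1 had 89.3, 42.9 and 45.0 CPM in MI6h-18h-F, against 13.7 to 16.5 CPM in MI6h_R (1.96 ± 0.35, edgeR adjusted p = 0.00457). Ube2c had 31.5, 18.4 and 16.3 CPM in MI6h-18h-F, against 5.38 to 7.66 CPM in MI6h_R (1.78 ± 0.43, adjusted p = 0.0177). The smallest p was that of Bub1 (1.69 ± 0.24, adjusted p = 0.00264) and the largest change that of Nusap1 (2.64 ± 0.43, adjusted p = 0.00363), the gene that had fallen in MI6h_R relative to Sham. Aurkb had 28.8, 19.4 and 21.4 CPM in MI6h-18h-F, also above all MI6h_R libraries, but was not called (0.98 ± 0.33, adjusted p = 0.0663). Cdca8 had 19.1, 11.1 and 13.8 CPM in MI6h-18h-F and was not called either (0.69 ± 0.36, adjusted p = 0.236). Without MI6h_R replicate 11 the test called 13 members, and without MI6h_R replicate 21 it called 14.

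Under permanent ligation 15 members rose in MI24h-F relative to MI24h and none fell, where 5.19% of all genes rose and 7.78% fell. The median was 1.04, a 2.06-fold level, and for 27 members every MI24h-F library lay above every MI24h library, as was so for 15.3% of all genes. Called were 5 of 6 chromosome genes, 5 of 9 checkpoint and kinetochore genes, 3 of 5 cytokinesis genes and 2 of 4 spindle genes, and none of the entry, passenger or exit genes. Smc4 had 134, 117 and 142 CPM in MI24h-F, against 40.3, 50.3 and 52.9 CPM in MI24h (1.45 ± 0.22, edgeR adjusted p = 0.00217). Smc2 rose by 1.27 ± 0.20 (adjusted p = 0.00262), Ncapg by 2.06 ± 0.34 (adjusted p = 0.00276) and Bub1 by 1.14 ± 0.24 (adjusted p = 0.00683). Mki67 had 61.3, 74.6 and 113 CPM in MI24h-F, all above MI24h (1.20 ± 0.36, adjusted p = 0.0343).

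Cdk1, by contrast, had 23.4, 28.8 and 34.9 CPM in MI24h-F, and its lowest F library lay below the highest MI24h library (0.54 ± 0.37, edgeR adjusted p = 0.357). Cdca8 had 8.70, 9.79 and 13.5 CPM in MI24h-F and overlapped MI24h (0.23 ± 0.37, adjusted p = 0.722). The remaining members shown by library had 7.56, 12.4 and 18.6 CPM in MI24h-F for Plk1, and 15.7, 14.2 and 21.7 CPM for Aurkb. Nuf2 had 9.38, 12.3 and 12.7 CPM there, and Tpx2 24.7, 34.4 and 38.3 CPM. Prc1 had 27.3, 28.5 and 47.2 CPM and Ube2c 9.76, 11.3 and 17.7 CPM in MI24h-F. Replicate 4 was the highest MI24h-F library for all 10 genes shown, and without it 5 members were called. The count was 6 without MI24h replicate 11, 7 without MI24h-F replicate 1, 8 without MI24h replicate 41, 9 without MI24h-F replicate 2 and 9 on log2(TPM + 1).

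Under early reperfusion, where the set was already high without F, no member was called by edgeR in MI1h-23h-F relative to MI1h_R, where 0.0255% of all genes rose. All 35 members were positive, with a median of 0.70, a 1.62-fold level. Of the members 20 had an unadjusted p under 0.05, against 7.07% of all genes in this direction. For 5 members every MI1h-23h-F library lay above every MI1h_R library, as for 10.8% of all genes. DESeq2 called 5 members, where it called 1.21% of all genes up, and limma-voom called 10, where it called 12.4% up. Mki67 had 243, 206 and 112 CPM in MI1h-23h-F, against 113, 118 and 79.3 CPM in MI1h_R (0.85 ± 0.35, edgeR adjusted p = 0.244). Prc1 had 108, 102 and 46.7 CPM in MI1h-23h-F, and Smc4 had 210, 159 and 121 CPM. In these 3 genes replicate 5 lay within the range of MI1h_R and the other 2 libraries lay above it.

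Entry genes gave the same picture, with 73.3, 66.2 and 42.3 CPM for Cdk1 and 39.2, 39.3 and 18.1 CPM for Plk1 in MI1h-23h-F. Aurkb had 32.7, 35.4 and 20.2 CPM there and Cdca8 24.3, 23.5 and 15.1 CPM. Nuf2 had 23.9, 22.4 and 14.2 CPM and Tpx2 79.5, 69.6 and 36.2 CPM in MI1h-23h-F. Ube2c had 38.5, 30.6 and 16.5 CPM. The ranges of MI1h-23h-F and MI1h_R overlapped for all 10 genes shown. The largest difference was that of Cenpf, a large protein of the kinetochore corona (1.57 ± 0.47, edgeR adjusted p = 0.142), and the smallest p that of the chromosome-bound kinesin gene Kif4a (1.19 ± 0.32, adjusted p = 0.121).

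**Figure D5:**
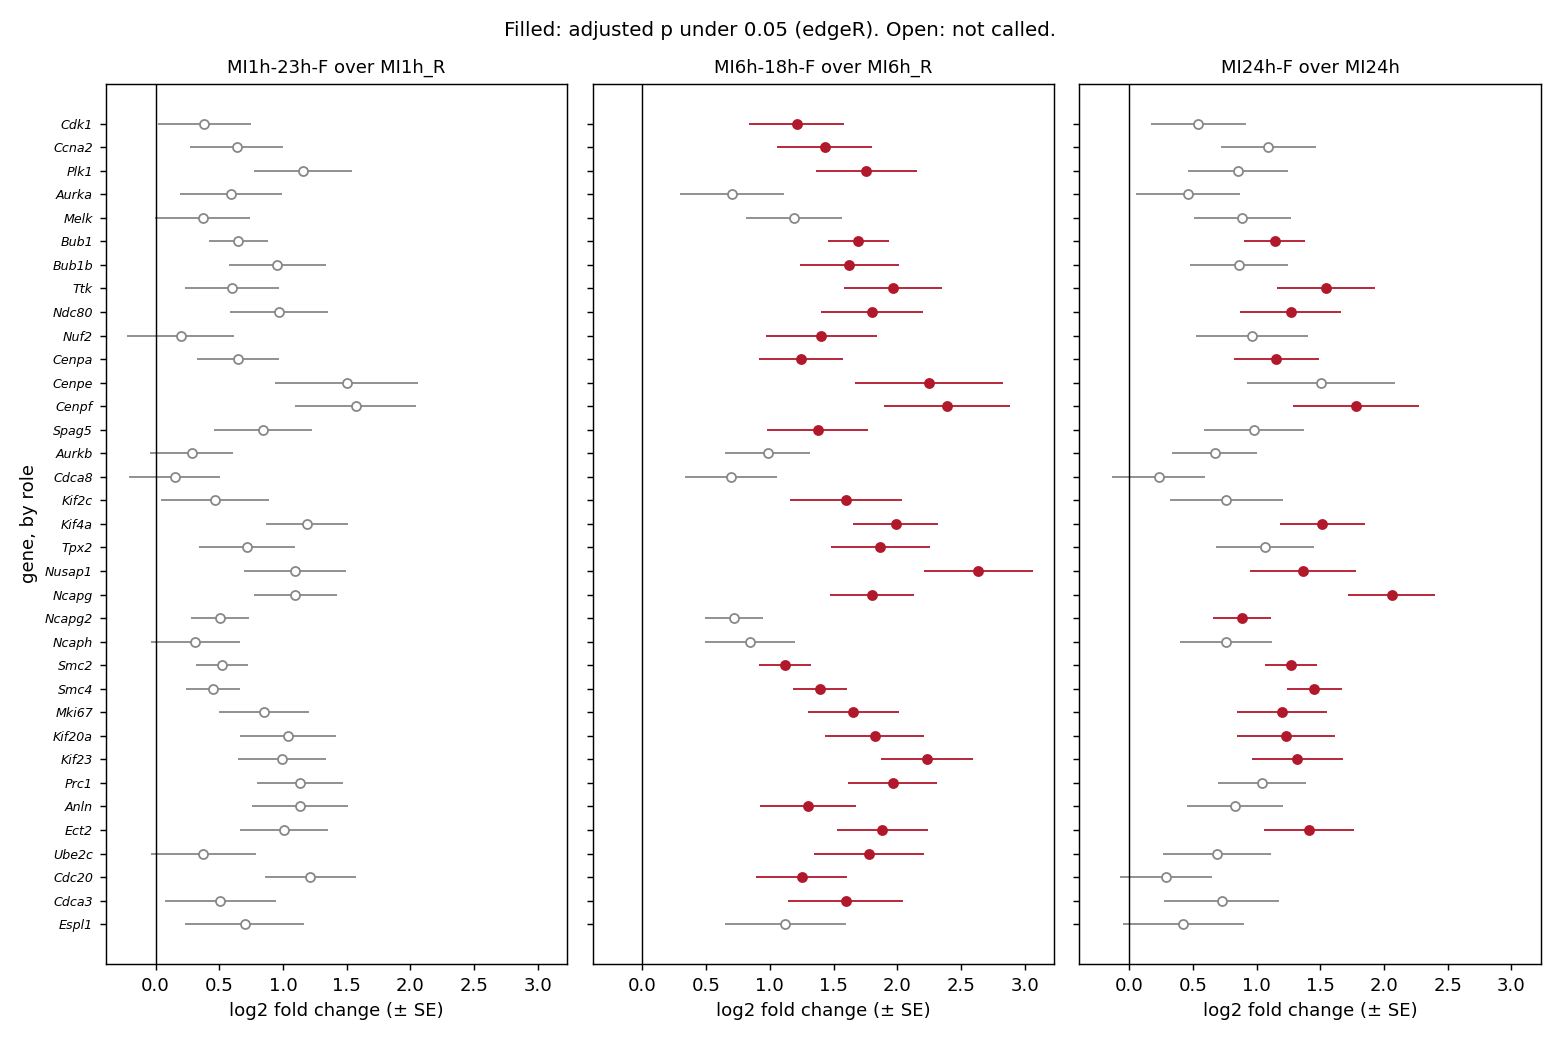
Log2 fold change with F of each of the 35 genes (rows, by role) under early reperfusion, late reperfusion and permanent ligation, with bars of ± 1 SE from edgeR, filled where the adjusted p was under 0.05. All points lie above 0, with 0 filled under early reperfusion, 28 under late reperfusion and 15 under permanent ligation.

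Averaged over the 3 injuries, 33 of 35 members rose with F and none fell, where 11.3% of all genes rose and 15.7% fell, with a median of 1.09 against -0.02 for all genes. The smallest p-values were those of Smc4 (1.10 ± 0.12, edgeR adjusted p = 4.01e-05), Ncapg (1.65 ± 0.19, adjusted p = 4.14e-05) and Bub1 (1.16 ± 0.14, adjusted p = 4.16e-05). The largest average was that of Cenpf (1.91 ± 0.28, adjusted p = 0.000157), and Mki67 had 1.24 ± 0.21 (adjusted p = 0.000394) and Cdk1 0.71 ± 0.21 (adjusted p = 0.019). Not called were Aurka, the kinase of the spindle poles (0.59 ± 0.23, adjusted p = 0.0702), and Cdca8 (0.36 ± 0.21, adjusted p = 0.221). With any library left out, 31 to 33 members were called.

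Whether the difference with F itself differed between injuries was tested as a contrast of the F effects. The F effect under early reperfusion was below that under late reperfusion for all 35 members, with a median difference of -0.80, but none was called, where 0.00852% of all genes were called down and 7 members had an unadjusted p under 0.05, as did 825 of the 11742 genes in this direction. The largest such difference was -1.54 ± 0.57 for Nusap1 (edgeR adjusted p = 0.316), and Bub1 had -1.05 ± 0.33 (adjusted p = 0.274). Early against permanent gave a median of -0.31 with no call, where 0% of genes were called down and 2 members had an unadjusted p under 0.05, as did 886 genes in this direction. Late against permanent gave 0.47 with no call, where 0% were called up and 1 member had an unadjusted p under 0.05, as did 294 genes in this direction. DESeq2 called no member in any of the 3, and limma-voom called 5 members down for early against late, where it called 4.99% of all genes down, 1 down for early against permanent, where it called 7.83% down, and 0 for late against permanent. By edgeR the different counts of calls under the 3 injuries are thus not shown to be different effects.

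Within the F groups, 11 members rose in MI1h-23h-F relative to MI24h-F, where 8.87% of all genes rose, and the median was 0.97. Cdc20, the activator of the anaphase-promoting complex, led with 54.3, 58.8 and 23.2 CPM in MI1h-23h-F, against 9.38, 14.9 and 19.0 CPM in MI24h-F (1.65 ± 0.36, edgeR adjusted p = 0.00757). Prc1 had 1.32 ± 0.34 (adjusted p = 0.016), Nusap1 1.58 ± 0.41 (adjusted p = 0.016) and Mki67 1.17 ± 0.35 (adjusted p = 0.0324). The count was 1 without MI1h-23h-F replicate 4, MI24h-F replicate 1 or MI24h-F replicate 2, 2 without MI1h-23h-F replicate 1, and 24 in a fit of these 2 groups alone. No member was called between MI6h-18h-F and MI24h-F by edgeR, DESeq2 or limma-voom, where edgeR called 0.145% of genes up, the median was 0.63 and 6 members had an unadjusted p under 0.05, against 4.89% of all genes in this direction. Cdc20 had the largest value there (1.07 ± 0.36, adjusted p = 0.258). None was called between MI1h-23h-F and MI6h-18h-F by any of the 3 tools, where 0% of genes were called up, the median was 0.37 and 0 members had an unadjusted p under 0.05, and Cdca3 had the largest value (0.72 ± 0.44, adjusted p = 0.481).

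Relative to Sham the groups with F had nearly all members up, in comparisons that share the Sham libraries. In MI1h-23h-F all 35 rose, where 23.9% of all genes rose, with a median of 2.26, a 4.79-fold level. The log2 fold changes ran from 1.34 ± 0.23 for Ncapg2 (edgeR adjusted p = 0.000161) to 3.78 ± 0.38 for Ncapg (adjusted p = 2.32e-06). In MI6h-18h-F all 35 rose, where 28.6% rose, with a median of 1.93, from 0.98 ± 0.40 for Nusap1 (adjusted p = 0.0453) to 3.68 ± 0.38 for Ncapg (adjusted p = 5.28e-07). In MI24h-F 28 rose, where 30.7% rose, with a median of 1.303, and Ncapg was again the highest at 3.14 ± 0.37 (adjusted p = 1.36e-06). Called there were all entry, checkpoint, chromosome and cytokinesis genes and none of the 4 exit genes, and the count was 19 without MI24h-F replicate 4.

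Other cell cycle genes place the set in the cycle. A further list of mitosis genes, none of them a member, had 55 of 61 symbols with a row. Of these 11 rose in MI1h_R relative to MI24h, 26 in MI6h-18h-F relative to MI6h_R, 19 in MI24h-F relative to MI24h, 0 in MI1h-23h-F relative to MI1h_R and 38 in the average F effect, with none falling. Of all genes 1.51%, 3.92%, 5.19%, 0.0255% and 11.3% rose, in that order. The average F effect was 1.54 ± 0.18 for the midzone kinesin gene Kif20b, 1.47 ± 0.17 for Kif18a, a kinesin that aligns chromosomes, and 0.73 ± 0.09 for the microtubule polymerase gene Ckap5. TTTGAA was in 57.8% and CCAAT in 60% of the 45 promoters found for this list.

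Genes of DNA replication, with 40 of 47 symbols found, were called mostly against Sham. Against Sham 36 rose in MI1h_R, 31 in MI6h_R and 31 in MI24h, where 25.4%, 29.3% and 28% of all genes rose. Summed, they were at 1544 to 1973 CPM in MI1h_R, 1264 to 1415 CPM in MI6h_R, 993 to 1396 CPM in MI24h and 483 to 934 CPM in Sham. In MI1h_R relative to MI24h 39 of 40 were positive, with a median of 0.63, but the thymidylate synthase gene Tyms alone was called (0.95 ± 0.25, edgeR adjusted p = 0.0371). Their sums in MI1h_R lay above those in MI6h_R and MI24h with no overlap. With F they summed to 1604 to 1616 CPM in MI6h-18h-F, wholly above MI6h_R, and to 1575 to 1858 CPM in MI1h-23h-F, within the range of MI1h_R. Whether these genes differed from the members was not tested. In the average F effect 6 rose and 2 fell, where 11.3% of all genes rose and 15.7% fell, with a median of 0.10. Pola1, the catalytic subunit of the primase-polymerase, rose by 0.85 ± 0.14 (adjusted p = 0.000293) and the repressor gene E2f7 by 0.68 ± 0.20 (adjusted p = 0.0153). The replication fork gene Gins2 fell by 0.48 ± 0.10 (adjusted p = 0.0028).

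The ratio of the members' summed CPM to that of the replication genes was 0.600 to 1.13 in MI1h-23h-F and 0.454 to 0.568 in MI1h_R. It was 0.638 to 1.08 in MI6h-18h-F and 0.306 to 0.362 in MI6h_R, 0.511 to 0.720 in MI24h-F and 0.318 to 0.349 in MI24h, and 0.409 to 0.724 in Sham. The F groups lay above their counterparts with no overlap. Among the groups without F, MI6h_R and MI24h lay below Sham on CPM. This did not hold for the ratio of summed TPM. It was 0.215 to 0.258 in MI6h_R and 0.230 to 0.259 in MI24h, overlapping the 0.224 to 0.421 of Sham. The F groups lay above their counterparts on TPM too.

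Inhibitors of the cycle and targets of p53 moved in part the other way, among 15 of 18 symbols with a row. In MI1h_R relative to MI24h 4 fell and 1 rose. Among those that fell was the CDK inhibitor Cdkn1a (p21), by 1.44 ± 0.28 (edgeR adjusted p = 0.00806). The 1 that rose, Cdkn2c, is a CDK inhibitor too (1.15 ± 0.28, adjusted p = 0.0257). Of all genes 2.81% fell and 1.51% rose there. Cdkn1a had 18.6, 17.4 and 30.3 CPM in MI1h_R, against 87.7, 46.1 and 46.3 CPM in MI24h. In the average F effect 4 fell and 4 rose, where 15.7% of all genes fell and 11.3% rose. The values were -0.80 ± 0.16 for Cdkn1a (adjusted p = 0.0013) and -0.85 ± 0.13 for the damage-response gene Gadd45a (adjusted p = 0.000179). Among those that rose were the pocket protein genes Rbl2 (0.61 ± 0.08) and Rb1 (0.48 ± 0.09), which restrain the cycle. Of 12 genes for DREAM, MuvB and NF-Y subunits 3 rose and 2 fell in the average F effect, and of 5 G1 cyclins and kinases none was called.

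Markers of cell types moved as well, and their part in the results was not tested. Their counts in the average F effect stand beside 11.3% of all genes that rose and 15.7% that fell. With F, fibroblast markers summed to 7652 to 10355 CPM in MI1h-23h-F against 2948 to 4950 CPM in MI1h_R, to 3715 to 9211 CPM in MI6h-18h-F against 1860 to 2586 CPM in MI6h_R, and to 3691 to 4431 CPM in MI24h-F against 2048 to 3437 CPM in MI24h, and 5 of 8 rose in the average F effect. In MI6h-18h-F the highest sum was that of replicate 1, which was also the highest library for 33 members, and the other 2 libraries were at 3926.5 and 3715 CPM. MI6h-18h-F replicate 1 also had the highest heart muscle sum of its group, at 8924 CPM, and the lowest macrophage sum, at 4109.5 CPM. Links between marker sums and members were not tested. In MI1h-23h-F, replicate 1, the highest library for 26 members, had 7652 CPM, and replicate 5, the lowest for all 35, had 8186 CPM. In MI1h_R, replicate 41, the lowest for 32 members, had 4096.5 CPM, and replicate 31 had 2948 CPM. In Sham, fibroblast markers summed to 9196 to 10674 CPM. Markers of the red cell lineage, among them the globin gene Hba-a1, summed to 3051 to 4248 CPM in MI1h-23h-F against 930 to 2428 CPM in MI1h_R. They summed to 4705 to 11559 CPM in MI6h-18h-F against 2471 to 5448 CPM in MI6h_R. Under permanent ligation they summed to 4209 to 13058 CPM in MI24h-F against 1358 to 4209 CPM in MI24h, and 4 of 6 rose in the average. In Sham they summed to 2415 to 4222 CPM. Of 10 heart muscle markers 4 fell in MI24h-F relative to MI24h, where 7.78% of all genes fell. These markers summed to 2655 to 4832 CPM in MI24h-F against 7866 to 11807 CPM in MI24h. With F, 0 of the 10 were called under early reperfusion, under late reperfusion and in the average F effect. Their sums were 10251 to 15931 CPM in MI1h-23h-F against 10124 to 13683 CPM in MI1h_R. Under late reperfusion they were 3421 to 8924 CPM in MI6h-18h-F against 3747 to 9447 CPM in MI6h_R.

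Among leukocytes, T and NK cell markers summed to 176 to 233 CPM in MI1h_R against 42.3 to 91.9 CPM in MI24h, and Cd8a alone was called (2.32 ± 0.61, edgeR adjusted p = 0.0372), while the median of the 7 markers was 0.06. They summed to 70.9 to 116 CPM in MI1h-23h-F, below MI1h_R. Neutrophil markers, of cells that no longer divide when mature, summed to 467 to 885 CPM in MI1h_R against 479 to 2977 CPM in MI24h, with 3 of 8 down, where 2.81% of all genes fell. With F they summed to 237 to 562 CPM in MI1h-23h-F, to 682 to 835 CPM in MI6h-18h-F against 1163 to 1303 CPM in MI6h_R, and to 1220 to 1442 CPM in MI24h-F, and 1 of 8 fell in the average. Under late reperfusion these groups did not overlap. Endothelial markers summed to 1291 to 1547 CPM in MI1h-23h-F against 762 to 1168 CPM in MI1h_R, overlapped with and without F under the other injuries, and had 1 of 6 up in the average. Macrophage markers overlapped with and without F under each injury, and 1 of 7 fell in the average. In that average 11.3% of all genes rose and 15.7% fell. Of 8 granulocyte precursor markers Ltf and Ctsg had no count in any library, and the sum was at most 24.2 CPM.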

How the data were processed

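RNA was isolated with RNeasy columns and DNase and sequenced from NEBNext Ultra libraries on an Illumina HiSeq, per the labels' protocols. Reads were aligned with STAR 2.7.3a to rn7 and quantified with RSEM 1.3.1, per the submitters' processing notes. The annotation and strandedness are not given in the sources used here. The deposited tables hold estimated counts, all of them whole, and TPM, both made by the authors. The group field of the labels shortens some names, so titles were followed.

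Counts were analysed with edgeR 4.0.16 in R 4.3.3 (filterByExpr on 7 groups with a minimum count of 10, TMM factors, quasi-likelihood test, 1 term per group, 21 libraries, 19 contrasts, Benjamini-Hochberg adjustment over 11742 genes). TMM factors were 0.535 to 0.677 in Sham and 0.996 to 1.17 elsewhere. CPM use the TMM-scaled library sizes and each SE was derived from the fitted coefficient with its F statistic. With 3 libraries against 3, an exact permutation test cannot give a p under 0.1. No member shared identical counts with another symbol, as 492 tested genes did. The test was checked on simulated counts. Promoters and their motifs come from RefSeq, in a build other than that of the reads, and no values depend on them.

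Values of all libraries are given for Mki67, Cdk1, Aurkb, Plk1 and the most abundant member by TPM in each role, and fold changes for these and for members with extreme values or p. From other lists up to 4 genes with the smallest p are named, except 1 that is not reported here. The libraries shown for Nusap1, Cdc20 and Cdkn1a were chosen after their values were seen. The members and lists were chosen with earlier results of these data known. Alternatives were DESeq2 1.42.0, limma 3.58.1 (voom with quality weights, and a trend on log2(TPM + 1)), mitochondrial genes left out, scaling by library size alone or by median-of-ratios factors, every gene kept without a filter, identical genes kept once, only the groups compared, a replicate block, each library left out and, added after the data were seen, a gene length trend removed. Plots used Python 3.11.15 with matplotlib 3.10.9.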

Additional observations from a re-analysis of the deposited data

How the results depend on the processing

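The direction of the members' median held in every comparison of 2 groups but MI6h_R over MI24h, where it lay between -0.12 and 0.22. Members called up in MI24h over Sham, 4 in the reported fit, were 19 with library size alone, 25 on log2(TPM + 1) and 9 with limma-voom, where 55.2%, 62.8% and 28.9% of all genes were called up, and 2 with only the groups compared and with the length trend removed, and 2 to 11 with a library left out. In MI6h_R over Sham, 4 became 25, 31 and 8 with library size alone, log2(TPM + 1) and limma-voom, where 58.6%, 67.7% and 30.9% of all genes were up, and 3 to 15 with a library left out. The 11 and the 15 were without Sham replicate 31, where 28% and 29.4% of all genes were up. In MI1h_R over MI24h, 15 became 7 with library size alone, 27 with DESeq2 (3.58% of all genes), 25 with limma-voom (5.26%), 5 on log2(TPM + 1) and 0 with only the groups compared, and 1 to 26 with a library left out. In MI1h_R over MI6h_R, 7 became 2, 21 (3.9% of all genes), 26 (11.6%), 1 and 2 in the same order and 11 without the length trend, and 0 to 21 with a library left out. In MI1h-23h-F over MI24h-F, 11 became 20 with DESeq2 (11.7% of all genes), 30 with limma-voom (22%) and 24 with only the groups compared (16%), and 1 to 13 with a library left out. In MI24h-F over MI24h, 15 became 9 on log2(TPM + 1), and 5 to 11 with a library left out. In MI1h-23h-F over MI1h_R, 0 became 5 with DESeq2 (1.21% of all genes) and 10 with limma-voom (12.4%). In MI6h-18h-F over MI6h_R, 28 became 13 to 26, and in MI24h-F over Sham, 28 became 19 to 32, with a library left out. The causes were not tested.

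Whether equal replicate numbers pair the libraries was not settled. Of 20 pairs of libraries with 1 number, 5 correlated above 0.1 (range -0.54 to 0.32). Pairs of unlike number were not compared with them, so these values cannot decide it. A replicate block, possible only within the libraries without F or with F, gave 2 calls in MI24h over Sham and 0 in MI1h_R over MI24h, in MI1h_R over MI6h_R and in MI1h-23h-F over MI24h-F. For the fold changes of genes named, 1316 values under alternatives stayed on their side of the threshold, 182 left it, 31 gained it and none reversed. The least abundant genes limit the precision, with an SE up to 0.62.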
